A study of Mus musculus with 15 samples.

Results

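Mitochondrial DNA (mtDNA) is the small circular genome that mitochondria carry apart from the chromosomes of the nucleus. Its genes were taken as every row of the deposited count table that lies on the mitochondrial chromosome (MT) of the mouse genome build GRCm38, which gave 37 of 55385 genes. They comprise 13 protein genes, 2 ribosomal RNA (rRNA) genes and 22 transfer RNA (tRNA) genes. All 37 had the same position and length in the GENCODE M21 annotation of that build, and no expression value entered their choice.

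As background, both strands of mtDNA are transcribed into long RNAs by the polymerase Polrmt, and these RNAs are cut into single transcripts, mostly at the tRNAs that lie between the other genes. The proteins are all subunits of the respiratory chain: the mt-Nd genes encode parts of complex I (NADH dehydrogenase), mt-Cytb part of complex III, the mt-Co genes the catalytic core of complex IV (cytochrome c oxidase), and mt-Atp6 and mt-Atp8 parts of complex V (ATP synthase). Every other subunit of these complexes is encoded in the nucleus, as are the proteins that copy, transcribe and translate mtDNA. In macrophages the balance between respiration and glycolysis is known to shift with activation.

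RNA-seq was performed on bone marrow-derived macrophages (BMDMs) of 6-week-old female BALB/c mice, either with intact floxed Stat5 genes (STAT5fl/fl, 2 mice) or with these genes removed by a Csf1r-iCre transgene, which is active in myeloid cells (STAT5cKO, 3 mice). BMDMs of each mouse were kept for 2 h in serum-free DMEM, in recombinant mouse GM-CSF (rmGM-CSF, 20 ng/mL) or in medium conditioned by serum-starved 4T1 mouse mammary tumor cells (4T1 CM), giving 6 groups and 15 libraries. The mice are named by the numbers in the labels, 112 and 113 for STAT5fl/fl and 114, 115 and 116 for STAT5cKO, and a further STAT5fl/fl replicate had been removed in quality control by the study. Libraries held 16016736 to 22883108 counted fragments, so that 1 CPM (the unit of counts scaled to a common library size) stood for 16 to 22.9 fragments.

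The labels were checked on the targeted genes. Stat5a had 637 to 918 counts in the 6 STAT5fl/fl libraries and 0 to 3 in the 9 STAT5cKO libraries, and Stat5b had 977 to 1654 and 0 to 4. All 8 macrophage markers examined were expressed in every group. Their summed level was 24599 to 28690 CPM in STAT5fl/fl and 33557 to 44333 CPM in STAT5cKO libraries, so this sum did not overlap between the genotypes. The 5 fibroblast markers summed to 1.07 to 2.21 CPM in STAT5fl/fl and 2.43 to 8.26 CPM in STAT5cKO libraries. Markers of neutrophils, B cells and erythroid cells summed to at most 2.34, 0.892 and 0.0624 CPM in any library. T cell markers summed to 5.68 to 11.1 CPM, with Cd3d, Cd3e, Cd3g and Cd8a at no more than 3 counts in each library. Epithelial markers reached at most 4.26 CPM, with the keratins Krt8, Krt18 and Krt19 at no more than 3 counts in each library.

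The 37 genes leave almost no space between them, and some share bases. The whole of mt-Atp8 is shown because its counts stood apart in one library, and it lies at MT:7766-7969 on the plus strand. Its last 43 bases, in capitals, are also the start of mt-Atp6. Sequences here are transcripts of GENCODE M21 on GRCm38, written 5′ to 3′.
mt-Atp8: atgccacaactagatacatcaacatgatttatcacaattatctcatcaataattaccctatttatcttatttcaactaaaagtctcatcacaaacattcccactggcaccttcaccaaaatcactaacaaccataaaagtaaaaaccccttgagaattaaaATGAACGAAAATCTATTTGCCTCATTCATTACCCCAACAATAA

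A further overlap joins mt-Nd4l to mt-Nd4, where the 7 capitals hold the stop codon of mt-Nd4l and the start codon of mt-Nd4 (MT:10144-10173). The ends of mt-Nd5 (MT:13536-13565, plus strand) and mt-Nd6 (MT:13552-13581, minus strand) share 14 bases on opposite strands, in capitals. This pair is shown because mt-Nd6 is the only protein gene on the minus strand, and its values are told from those of mt-Nd5 by strand.
mt-Nd4l end: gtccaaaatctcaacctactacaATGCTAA
mt-Nd5 end: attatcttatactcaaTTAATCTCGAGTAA
mt-Nd6 end: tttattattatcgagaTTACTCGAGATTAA

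The strands differ in base composition. G made up 28.1% of the coding strand of mt-Nd6 and 5.88% to 16.1% of that of the other 12 protein genes. The genes also differ at their ends. A stop codon in capitals closes mt-Co1 (MT:6858-6872), whereas mt-Cytb (MT:15276-15288), mt-Nd4 (MT:11532-11544) and mt-Co3 (MT:9378-9390) end 1 base into a codon, in capitals, which the poly(A) tail is known to complete to a stop.
mt-Co1 end: gtaaaagtaaaaTAA
mt-Cytb end: aaattatatccaT
mt-Nd4 end: ggcctgacaataT
mt-Co3 end: tgatgaggatctT

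The counted levels of the protein genes fell into a high and a low set. Over the 15 libraries, 6 protein genes had median counts from 20729 (mt-Nd4) to 170560 (mt-Co1) and the other 7 had medians from 4 (mt-Nd3) to 227 (mt-Nd6). Per kilobase of gene, the mean level was 5044 CPM per kb for mt-Co1, 2886 for mt-Cytb, 2065 for mt-Nd1, 1204 for mt-Nd2, 1095 for mt-Nd5 and 758 for mt-Nd4. In the low set it was 23.8 for mt-Nd6, 5.90 for mt-Co2, 5.78 for mt-Co3, 4.94 for mt-Atp6, 1.84 for mt-Nd4l and 0.722 for mt-Nd3. The rRNA genes mt-Rnr1 and mt-Rnr2 had 248 and 250 CPM per kb. The subunits of one complex were therefore counted at very different levels: mt-Co1, mt-Co2 and mt-Co3 are all made into the core of complex IV, yet the counted level of mt-Co1 exceeded the others by far in every library.

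The low set was largely the set of genes with an identical copy elsewhere. Chromosome 1 of GRCm38 carries 7 annotated pseudogenes of mtDNA in a row, all on the minus strand, between 24611535 and 24616197. Gm28661, Gm10925, Gm28437 and Gm10222 matched mt-Co2, mt-Atp6, mt-Co3 and mt-Nd4l over 681, 678, 783 and 294 bases with 0 mismatches. Gm28439 matched the first 876 bases of mt-Nd4, also with 0 mismatches, and Gm29216 matched bases 1054 to 1545 of mt-Co1 with 6 mismatches. Gm28438 differed from mt-Nd3 in 1 of 345 bases, T3C, counted from 1 at the first base of the gene and given as the mitochondrial base, position and pseudogene base. The first 33 bases of both (MT:9459-9491) are shown because that single base, in capitals, is all that tells them apart.
mt-Nd3: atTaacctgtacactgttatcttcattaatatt
Gm28438: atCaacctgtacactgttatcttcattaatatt

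Spacing was preserved as well, with 5 of the 6 gaps between neighbouring pseudogenes as long as the gaps between the matching mitochondrial genes. The gap between Gm28661 and Gm10925 is 233 bases, as is that between the matched parts of mt-Co2 and mt-Atp6. It is the place that corresponds to most of mt-Atp8, and no transcript is annotated in it.

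Every mitochondrial gene was cut into all windows of 50 bases, and each window was looked up in 141730 other annotated transcripts on both strands. All windows of mt-Co2 were found elsewhere, as were 99.9% of those of mt-Co3, 99.5% of mt-Atp6, 98.8% of mt-Nd4l and 98.0% of mt-Nd3. The share was 62.2% for mt-Nd4 and 51.1% for mt-Co1, 8.19% for mt-Nd2 and 7.61% for mt-Nd5. It was 0 for mt-Nd1, mt-Cytb, mt-Nd6, mt-Atp8 and mt-Rnr1, and 1.04% for mt-Rnr2. The search could not find a copy of mt-Atp8 in the gap named above, since no transcript is annotated there. Counting required a mapping quality of at least 10, which reads with equally good matches at 2 places do not usually reach, and the part of this setting in the low counts was not tested. The pseudogenes themselves had median counts of 13 (Gm10222) to 107 (Gm10925), and for 3 of them this was close to the gene they match: 83 for Gm28661 beside 89 for mt-Co2, 106 for Gm28437 beside 94 for mt-Co3, and 13 for Gm10222 beside 11 for mt-Nd4l. Values of mt-Co2, mt-Co3, mt-Atp6, mt-Nd4l and mt-Nd3 are uncertain, since most fragments of these genes read the same as the copy.

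**Figure D1:**
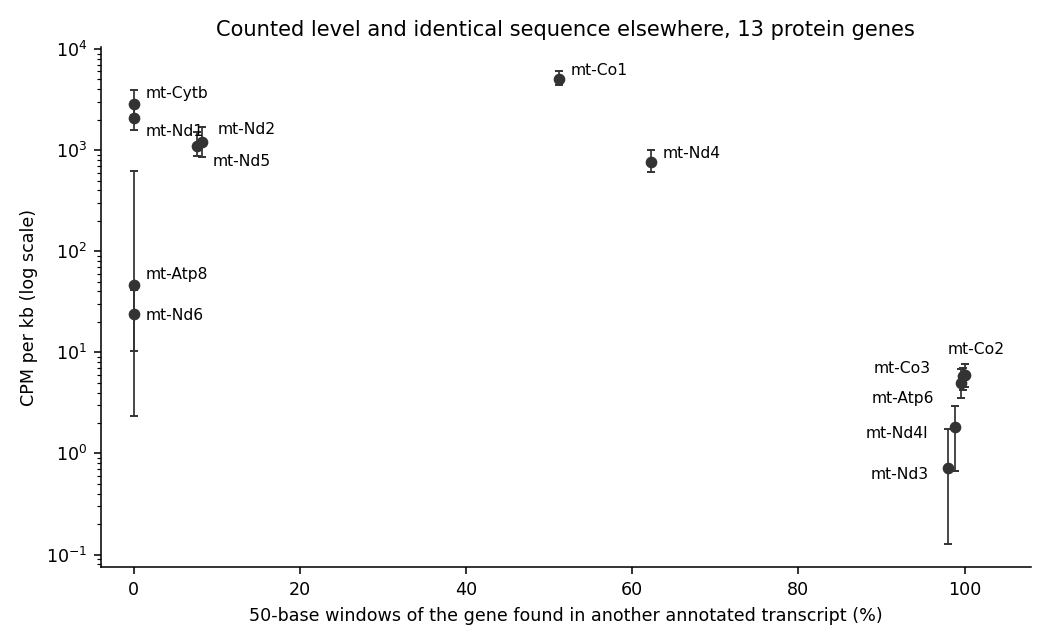
Mean level of each of the 13 protein genes over the 15 libraries, in CPM per kb on a log axis, against the percentage of its 50-base windows found in another annotated transcript; bars run from the lowest to the highest library. The 5 genes with 98.0% or more of their windows found elsewhere lie below 10 CPM per kb in every library, mt-Nd6 and mt-Atp8 are low with no such window, and the long bar of mt-Atp8 comes from 1 library. Sequence without an annotated transcript was not searched, which includes the place on chromosome 1 that corresponds to most of mt-Atp8.

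Of the 37 genes, 14 passed the filter for testing (over 1 CPM in at least 2 libraries): 11 protein genes, both rRNA genes and mt-Tw, the tRNA for tryptophan. The 23 others had too few counts. Among these, mt-Nd3 had 1 to 12 counts and mt-Nd4l 4 to 18 counts per library, and the remaining 21 were tRNA genes. No tRNA gene exceeded 39 counts in any library, and 10 of the 22 had no count in any library, which allows up to 3 counts per library, or 0.131 to 0.187 CPM.

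The first question was how much of each library came from mtDNA. In DMEM the 37 genes took 2.04% and 1.92% of the counts of STAT5fl/fl mice 112 and 113, and 1.64%, 1.48% and 1.71% of those of STAT5cKO mice 114, 115 and 116. With rmGM-CSF the shares were 1.78% and 1.94% in STAT5fl/fl and 1.55%, 1.497% and 1.53% in STAT5cKO BMDMs. With 4T1 CM they were 2.27% and 2.20% in STAT5fl/fl and 1.83%, 1.65% and 1.99% in STAT5cKO BMDMs. The highest share of each mouse was thus the one with 4T1 CM, and the STAT5cKO libraries lay below the STAT5fl/fl libraries within every treatment.

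Between treatments the share was compared within mice. It rose by 0.232 percentage points from DMEM to 4T1 CM (SD of the differences 0.0522, n = 5 mice), a ratio of 1.11 to 1.17 in single mice, and was higher in 5 of 5. Against rmGM-CSF the difference was 0.331 percentage points (SD 0.146, 5 of 5 mice higher), whereas rmGM-CSF and DMEM differed by -0.0985 (SD 0.123, 2 of 5 higher). In two-sided exact permutation tests p was 0.0625, 0.0625 and 0.25, and 0.0625 is the smallest value that 5 mice allow (0.1875, 0.1875 and 0.25 after Benjamini-Hochberg adjustment over 6 comparisons). Between genotypes the mean of STAT5cKO minus that of STAT5fl/fl was -0.374 points in DMEM (1.61% ± 0.118 SD, n = 3, against 1.98% ± 0.0825, n = 2), -0.333 in rmGM-CSF (1.53% ± 0.0276 against 1.86% ± 0.116) and -0.414 in 4T1 CM (1.83% ± 0.174 against 2.24% ± 0.0495). Each of these 3 differences had an exact p of 0.2, the smallest that 3 mice against 2 allow, and 0.24 after adjustment. In bulk RNA a lower share per library cannot tell apart fewer mitochondrial transcripts per cell, more of other RNA per cell, and a different mix of cells.

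**Figure D2:**
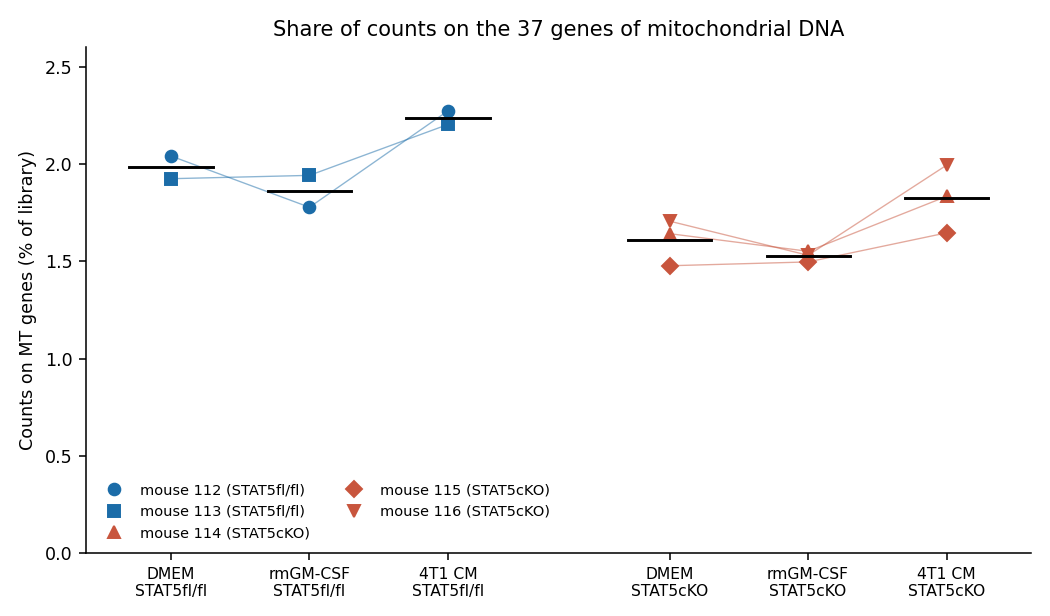
Percentage of all counts in a library that fell on the 37 genes of mtDNA, by genotype and treatment; symbols are mice, thin lines join the 3 libraries of a mouse, and black bars are group means. Each mouse has its highest share with 4T1 CM, and the 3 STAT5cKO mice lie below both STAT5fl/fl mice within each treatment.

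Within mtDNA, protein genes took 95.1% to 97.7% of the counts, rRNA genes 2.28% to 4.92%, and all tRNA genes together 30 to 85 counts per library. As background, the rRNAs of mitochondria are by far their most abundant RNAs, and the cause of their small part here was not tested. How the kit removed rRNA or selected mRNA is not given in the sources used here. Of the summed counts of the 13 protein genes, mt-Co1 held on average 45.0%, mt-Cytb 18.9%, mt-Nd5 11.5%, mt-Nd1 11.3%, mt-Nd2 7.12% and mt-Nd4 6.00%.

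The second question was which single genes differed between treatments. Each gene was tested with edgeR's quasi-likelihood F test over all 13005 genes that passed the filter, in 1 model of the 6 groups, and a gene was called at a Benjamini-Hochberg adjusted p under 0.01. The levels that follow are CPM after scaling of the library sizes by relative log expression, and differences are log2 fold changes with their standard error (SE). Where groups are said not to overlap, this describes their libraries only. Groups this small can lack overlap by chance, and the share of all tested genes without overlap was not determined.

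With 4T1 CM the mRNAs of mt-Co1 and mt-Nd4 were higher than in DMEM in both genotypes, those of mt-Nd2, mt-Nd5 and mt-Cytb also passed the test in STAT5cKO BMDMs, and neither rRNA gene was called. mt-Co1, the catalytic subunit of complex IV, had 7850.2 and 7765 CPM in STAT5fl/fl BMDMs with DMEM and 9712 and 9631 CPM with 4T1 CM. In STAT5cKO BMDMs it had 6528, 6328 and 7208 CPM with DMEM and 8063, 8263 and 8643 CPM with 4T1 CM. The libraries of the media did not overlap in either genotype, and mt-Co1 rose by 0.31 (SE 0.09, adjusted p = 0.00658) in STAT5fl/fl and by 0.32 (SE 0.07, adjusted p = 0.0012) in STAT5cKO BMDMs.

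Among complex I genes, mt-Nd4, a membrane subunit of the proton-pumping arm, had 1087 and 984 CPM in STAT5fl/fl BMDMs with DMEM and 1429 and 1344 CPM with 4T1 CM. In STAT5cKO BMDMs it had 887, 790.4 and 930.0 CPM with DMEM and 1173, 968 and 1276 CPM with 4T1 CM. It rose in both genotypes without overlap, by 0.42 (SE 0.10, adjusted p = 0.00289) and 0.39 (SE 0.09, adjusted p = 0.00102). mt-Nd5, another subunit of that arm, had 2009 and 1773 CPM in STAT5fl/fl BMDMs with DMEM and 2674 and 2422 CPM with 4T1 CM, a difference of 0.43 that missed the threshold (adjusted p = 0.0141). In STAT5cKO BMDMs it had 1731, 1484 and 1663 CPM with DMEM and 2272, 1989 and 2878 CPM with 4T1 CM. There it rose by 0.55 (SE 0.11, adjusted p = 0.000502), the largest rise of an abundant mitochondrial gene in that comparison, and the highest library was that of mouse 116.

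mt-Nd2 rose by 0.37 (SE 0.10, adjusted p = 0.00599) in STAT5cKO BMDMs, where it had 1056, 826 and 990.1 CPM with DMEM and 1239, 1051 and 1424 CPM with 4T1 CM. These groups overlapped by a single library, that of mouse 115 with 4T1 CM. In STAT5fl/fl BMDMs mt-Nd2 had 1447 and 1354 CPM with DMEM and 1837 and 1685 CPM with 4T1 CM (log2 fold change 0.33, adjusted p = 0.0368). mt-Nd1 had log2 fold changes of 0.23 in both genotypes, with adjusted p of 0.0637 in STAT5fl/fl and 0.0293 in STAT5cKO BMDMs, and was not called.

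mt-Cytb, the catalytic subunit of complex III, had 2609.7, 2374 and 2898 CPM in STAT5cKO BMDMs with DMEM and 3614, 2819 and 3631 CPM with 4T1 CM. It rose by 0.35 (SE 0.09, adjusted p = 0.00416), with the 4T1 CM library of mouse 115 inside the DMEM range. In STAT5fl/fl BMDMs it had 3629 and 3454 CPM with DMEM and 4658 and 4404 CPM with 4T1 CM, with a similar difference of 0.36 that missed the threshold (adjusted p = 0.0148).

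The rRNA genes, which encode the RNAs of the mitochondrial ribosome, were not called. mt-Rnr1 had 294 and 253 CPM in STAT5fl/fl BMDMs with DMEM and 204 and 226 CPM with 4T1 CM, a log2 fold change of -0.35 (adjusted p = 0.0865). In STAT5cKO BMDMs it had 259, 212 and 235 CPM with DMEM and 167, 199.8 and 278 CPM with 4T1 CM. mt-Rnr2 had log2 fold changes of -0.08 and -0.13 (adjusted p = 0.77 and 0.51). These calls depended on the libraries used: mt-Rnr1 was called lower in STAT5fl/fl BMDMs with only the libraries compared (-0.35, adjusted p = 0.00928), and mt-Rnr2 in STAT5cKO BMDMs without mouse 116 (-0.47, adjusted p = 0.00669), whereas without mouse 114 it had 0.15 there (adjusted p = 0.471). Per 100 counts of protein genes, rRNA genes had 3.47 to 3.88 counts in STAT5fl/fl libraries with DMEM and 2.33 to 2.86 with 4T1 CM, which did not overlap. In STAT5cKO libraries they had 4.04 to 5.17 with DMEM and 2.53 to 4.01 with 4T1 CM, also without overlap, the last value being that of mouse 116.

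In all, 5 of the 14 tested mitochondrial genes rose with 4T1 CM in STAT5cKO BMDMs, where 19.3% of all tested genes were called higher, and 0 fell. In STAT5fl/fl BMDMs 2 rose (mt-Co1 and mt-Nd4), beside 19.2% of all genes, and 1 was lower, mt-Atp8, beside 18.2% of all genes. The median log2 fold change of the 14 genes was 0.28 in STAT5cKO and 0.32 in STAT5fl/fl BMDMs, with medians of 0.013 and 0.015 over all tested genes. These sizes depend on the scaling of the libraries. The unscaled means of the 6 abundant protein genes also rose in both genotypes, but by less. For mt-Co1 they went from 5367 to 6051 CPM per kb in STAT5fl/fl and from 4634 to 5199 in STAT5cKO BMDMs. With the mouse as a block, 7 genes passed in STAT5fl/fl BMDMs: mt-Co1, mt-Nd4, mt-Nd2 (adjusted p = 0.00331), mt-Nd5 (0.0019), mt-Cytb (0.00185), mt-Tw (0.00639) and mt-Atp8. mt-Tw had entered the test through 2 libraries over 1 CPM, those of STAT5fl/fl mouse 113 with 4T1 CM (39 counts) and rmGM-CSF (27 counts), so its call is no support for a rise. With mouse 112, 113, 114, 115 or 116 left out, 0, 1, 2, 6 and 4 genes were called in STAT5fl/fl and 3, 3, 1, 4 and 5 in STAT5cKO BMDMs, the 5 without mouse 116 including mt-Rnr2 as lower and mt-Co3 as higher, with mt-Nd5 of STAT5cKO BMDMs called each time and the differences of the 6 abundant protein genes positive each time. Of the STAT5fl/fl calls without mouse 114, 115 or 116, 1, 5 and 3 were rises, and the other each time was mt-Atp8 as lower. Without mouse 113 the call was mt-Atp8 as lower. Macrophage markers moved with 4T1 CM too: 4 of 8 were higher than in DMEM in STAT5fl/fl and 3 of 8 in STAT5cKO BMDMs, their summed level being 28015 to 28690 CPM against 26246 to 26483 CPM in STAT5fl/fl libraries and 36018 to 44333 CPM against 33557 to 39189 CPM in STAT5cKO libraries. RNAs that stay in the nucleus (Malat1, Neat1 and Kcnq1ot1) summed to 3499 to 4373 CPM with 4T1 CM and 2339 to 2782 CPM with DMEM in STAT5fl/fl libraries, and to 3246 to 4379 and 1852 to 4251 CPM in STAT5cKO libraries. Epithelial markers summed to 3.04 to 4.26 CPM with 4T1 CM, 1.11 to 1.37 with rmGM-CSF and 0 to 0.145 with DMEM in STAT5fl/fl libraries, and to 1.17 to 2.098, 0 to 0.0488 and 0 to 0.0465 CPM in STAT5cKO libraries. Cdh1, the 1 of these 5 markers that was tested, was called higher with 4T1 CM than with DMEM in both genotypes and lower in STAT5cKO than in STAT5fl/fl BMDMs with rmGM-CSF and with 4T1 CM, while the keratins were near 0 as given above. The part of these markers and RNAs in the rise was not tested.

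Against rmGM-CSF, the normalised levels of the 6 abundant protein genes differed in the same direction, with log2 fold changes of 0.15 to 0.35 in STAT5fl/fl and 0.19 to 0.47 in STAT5cKO BMDMs. This size depends on the scaling of the libraries, whose factors were 1.058 to 1.079 with DMEM, 0.945 to 0.995 with rmGM-CSF and 0.951 to 0.978 with 4T1 CM: the unscaled share of counts above differed more from rmGM-CSF (0.331 points) than from DMEM (0.232 points). Low genes varied in direction, as with mt-Co2 in STAT5fl/fl BMDMs at -0.08 against rmGM-CSF and 0.21 against DMEM, neither called. In STAT5cKO BMDMs mt-Co1 (6988, 6919.9 and 6895 CPM with rmGM-CSF) rose by 0.26 (SE 0.07, adjusted p = 0.00535). mt-Nd4 (883, 865 and 911 CPM with rmGM-CSF) rose by 0.36 (SE 0.09, adjusted p = 0.00215), and mt-Nd5 (1600.4, 1676 and 1866 CPM) by 0.47 (SE 0.11, adjusted p = 0.00203). None of these 3 genes overlapped between the media, but lack of overlap did not always go with a call. In STAT5cKO BMDMs 5 of the 14 genes did not overlap, and in STAT5fl/fl BMDMs 11 did not, where 0 were called by edgeR. Neither count can be read as a result, since the share of all tested genes without overlap was not determined. The genes called in STAT5cKO BMDMs were 3 of the 14, beside 16.6% of all genes called higher. With the mouse as a block 5 were called, mt-Nd2 (adjusted p = 0.000808) and mt-Cytb (0.00196) being added. With mouse 112, 113, 114, 115 or 116 left out, 2, 2, 0, 4 and 0 were called.

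In STAT5fl/fl BMDMs 0 of the 14 genes were called by edgeR between 4T1 CM and rmGM-CSF (4 at an unadjusted p under 0.05; 2 called by DESeq2), beside 13.8% of all genes called higher. mt-Nd4 was nearest, with 1069.9 and 1111 CPM with rmGM-CSF and a log2 fold change of 0.35 (adjusted p = 0.0128), and passed together with mt-Cytb (adjusted p = 0.00116 and 0.00967) with the mouse as a block. Without mouse 115 or 116, 2 genes and 1 gene were called.

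After scaling, the abundant genes lay close to their DMEM level with rmGM-CSF. In STAT5fl/fl BMDMs mt-Co1 had 7831 and 8564 CPM with rmGM-CSF, mt-Cytb 3565 and 3849.6 CPM, and mt-Nd5 1881 and 2149 CPM, and each range overlapped that of DMEM. The log2 fold changes of mt-Nd1, mt-Nd2, mt-Co1, mt-Nd4, mt-Nd5 and mt-Cytb were 0.07 to 0.09 in STAT5fl/fl and 0.03 to 0.08 in STAT5cKO BMDMs. Their sign depends on the scaling, since the unscaled means of all these genes were lower with rmGM-CSF than with DMEM. For mt-Co1 these were 5037 against 5367 CPM per kb in STAT5fl/fl and 4419 against 4634 in STAT5cKO BMDMs. The only call among the 14 genes was mt-Atp8 in STAT5fl/fl BMDMs, where 28.5% of all genes were called, and 0 were called in STAT5cKO BMDMs (0 at an unadjusted p under 0.05; 0 by DESeq2), where 23.5% of all genes were. With the mouse as a block, mt-Nd6 was added in STAT5fl/fl BMDMs (log2 fold change 1.30, adjusted p = 0.00179), and 2 genes were called there without mouse 114 or 115.

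Whether the genotypes differed in these responses was tested by the interaction of genotype and treatment. 0 of the 14 genes were called by edgeR for 4T1 CM (1 at an unadjusted p under 0.05; 0 by DESeq2), where 1.27% of all genes were, and 0 for rmGM-CSF (1 at an unadjusted p under 0.05; 0 by DESeq2), where 3.11% were. Without mouse 113, mt-Atp8 was called in each, which rests on the single DMEM library of mouse 112 described below. For 4T1 CM the difference between the genotypes in log2 fold change, STAT5cKO minus STAT5fl/fl, was 0.01 (SE 0.11) for mt-Co1, -0.0026 (SE 0.15) for mt-Cytb, -0.03 (SE 0.13) for mt-Nd4 and 0.12 (SE 0.17) for mt-Nd5. The gene at an unadjusted p under 0.05 was mt-Nd6 in each interaction. It had -1.51 (SE 0.58, edgeR adjusted p = 0.216) for 4T1 CM and -1.28 (SE 0.56, adjusted p = 0.276) for rmGM-CSF.

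**Figure D3:**
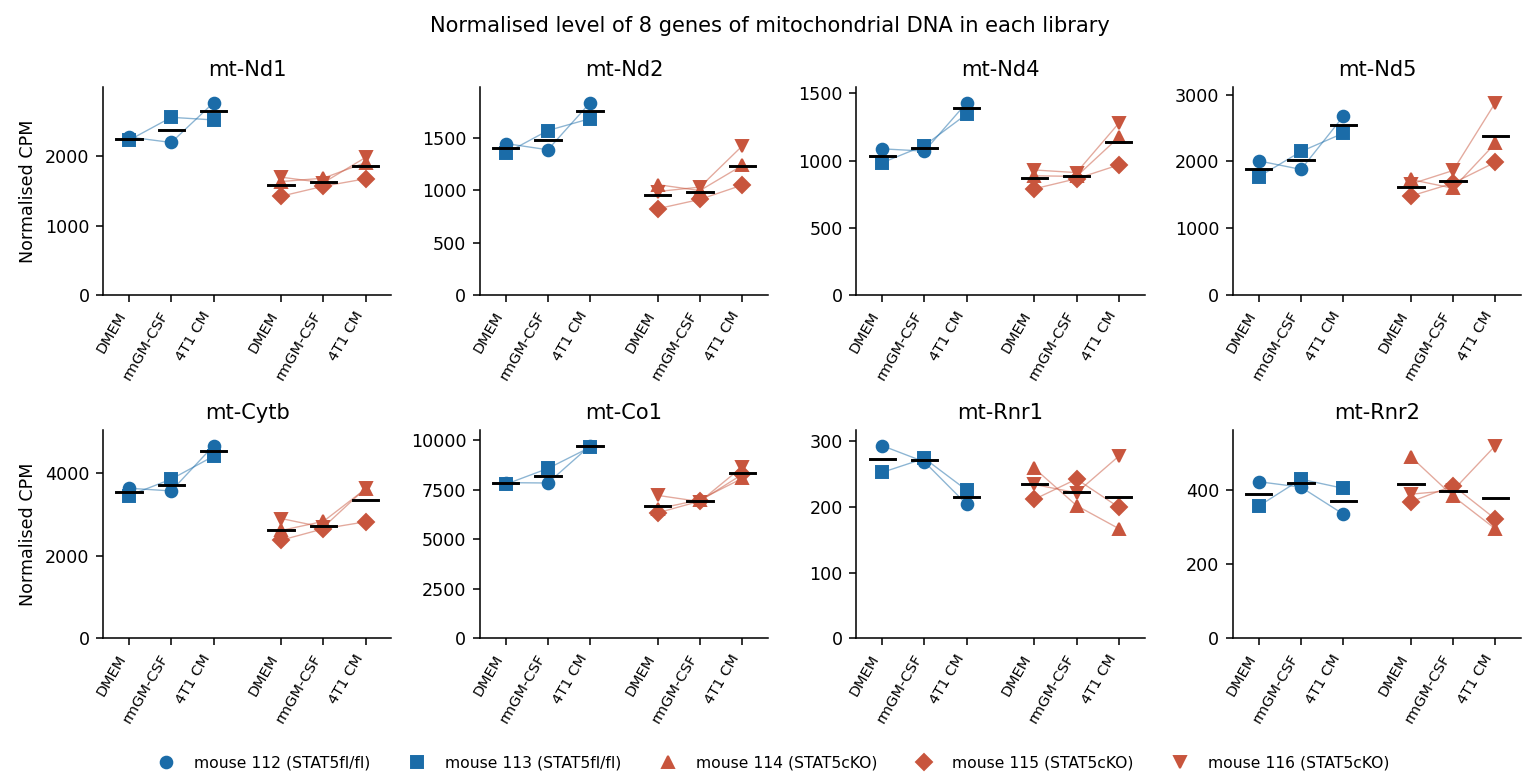
Normalised CPM of 6 abundant protein genes and the 2 rRNA genes in every library, on axes from 0; symbols are mice, thin lines join the libraries of a mouse, and black bars are group means. The protein genes have their highest group mean with 4T1 CM in both genotypes, and no group mean of an rRNA gene is highest with 4T1 CM. mt-Nd1, mt-Nd2, mt-Co1, mt-Nd4 and mt-Cytb are lower in every STAT5cKO library than in the STAT5fl/fl libraries of the same treatment.

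The third question was what the loss of STAT5 changed. The clearest difference was in the complex I genes mt-Nd1 and mt-Nd2, which were lower in STAT5cKO BMDMs in every treatment. mt-Nd1, a membrane subunit at the ubiquinone site, had 2273 and 2227 CPM in STAT5fl/fl and 1634, 1424 and 1697 CPM in STAT5cKO BMDMs with DMEM. With rmGM-CSF it had 2194 and 2555 CPM in STAT5fl/fl and 1683, 1567 and 1618 CPM in STAT5cKO BMDMs. With 4T1 CM it had 2765 and 2518 CPM in STAT5fl/fl and 1907, 1674 and 1980 CPM in STAT5cKO BMDMs. No STAT5cKO library reached the lowest STAT5fl/fl library of any treatment. mt-Nd1 fell, with log2 fold changes of -0.51 in DMEM (SE 0.09, adjusted p = 0.00271), -0.55 in rmGM-CSF (SE 0.09, adjusted p = 0.000306) and -0.51 in 4T1 CM (SE 0.09, adjusted p = 0.000892).

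mt-Nd2, encoded next to it, had 1388 and 1571 CPM with rmGM-CSF in STAT5fl/fl and 999, 915 and 1033 CPM in STAT5cKO BMDMs; its levels with DMEM and 4T1 CM are given above. mt-Nd2 did not overlap between genotypes within a treatment and fell with log2 fold changes of -0.55 in DMEM (adjusted p = 0.00723), -0.59 in rmGM-CSF (adjusted p = 0.00125) and -0.51 in 4T1 CM (adjusted p = 0.00523). mt-Cytb, with 2828, 2650.4 and 2687 CPM in STAT5cKO BMDMs with rmGM-CSF, was called with rmGM-CSF (-0.45, adjusted p = 0.00534) and 4T1 CM (-0.43, adjusted p = 0.00787) and had -0.43 in DMEM (adjusted p = 0.0173).

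The other abundant genes differed less. Within each treatment mt-Cytb, mt-Co1 and mt-Nd4 did not overlap between the genotypes either, and mt-Nd5 overlapped only with 4T1 CM. mt-Co1 had log2 fold changes of -0.22, -0.24 and -0.22 in DMEM, rmGM-CSF and 4T1 CM (adjusted p = 0.1, 0.0429 and 0.074), mt-Nd4 -0.25, -0.30 and -0.28 (0.124, 0.0386 and 0.0528), and mt-Nd5 -0.22, -0.23 and -0.10 (0.32, 0.224 and 0.648). Of the rRNA genes, mt-Rnr1 had -0.22, -0.29 and -0.0005 and mt-Rnr2 0.09, -0.07 and 0.04, with adjusted p of 0.207 or more.

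The unequal size of these differences could be read within a library, where no scaling between libraries enters. Per 100 counts of mt-Co1 there were 26.1 to 29.8 counts of mt-Nd1 in the 6 STAT5fl/fl libraries and 20.3 to 25.0 in the 9 STAT5cKO libraries. For mt-Nd2 there were 17.4 to 18.9 and 12.7 to 16.5. Neither ratio overlapped between the genotypes across all treatments. The libraries come from only 2 STAT5fl/fl and 3 STAT5cKO mice and are not independent, and both genes were already called above, so this is a description. For mt-Nd5 the ranges of 22.8 to 27.5 and 22.9 to 33.3 did overlap. Of the summed protein genes, mt-Nd1 held 11.4% to 12.9% in STAT5fl/fl and 9.97% to 11.3% in STAT5cKO libraries, without overlap. The shares of mt-Co1 (42.0% to 44.2% and 43.5% to 49.2%) and mt-Cytb (19.4% to 20.2% and 16.8% to 19.8%) overlapped.

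In each treatment 3 of the 14 genes were lower and 0 higher in STAT5cKO BMDMs: mt-Nd1, mt-Nd2 and mt-Atp8 in DMEM, beside 1.55% of all tested genes called lower, and mt-Nd1, mt-Nd2 and mt-Cytb with rmGM-CSF, beside 6.24%, and with 4T1 CM, beside 3.57%. The median log2 fold change of the 14 genes was -0.22 in DMEM, -0.36 in rmGM-CSF and -0.34 in 4T1 CM, beside medians of 0.001, 0.00 and 0.01 over all tested genes. The 3 comparisons use the same 5 mice and are not independent, and genotype cannot be told apart from the mouse, so the mouse as a block could not be fitted here. With mouse 112, 113, 114, 115 or 116 left out, 0, 1, 0, 2 and 1 genes were called in DMEM, 2, 0, 2, 3 and 2 in rmGM-CSF, and 0, 1, 1, 2 and 3 in 4T1 CM, and mt-Nd1, mt-Nd2 and mt-Cytb stayed lower each time. Without the DMEM library of mouse 112 alone, which held the unusual mt-Atp8 count described below, 0 genes were called in DMEM (mt-Nd1 at -0.49, adjusted p = 0.0337). The gene called in DMEM without mouse 113 was mt-Atp8, which rests on that library. Calls over all tested genes fell with fewer mice as well, in DMEM from 324 to 243, 188 and 171 without mouse 114, 115 or 116. Marker sums moved with genotype too. The higher macrophage sum of STAT5cKO libraries rested on few of the 8 markers: Lyz2 was called higher in each treatment and Cd14 with DMEM and 4T1 CM, while 5 of 8 had negative fold changes with rmGM-CSF and with 4T1 CM (medians -0.053 and -0.072). Fibroblast sums were higher, with 0 of 2 tested markers called in each treatment, and Cd4 was called lower in STAT5cKO BMDMs in each treatment, the T cell sums being 5.68 to 7.93 CPM against 8.56 to 11.1 CPM. The part of these in the differences was not tested.

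**Figure D4:**
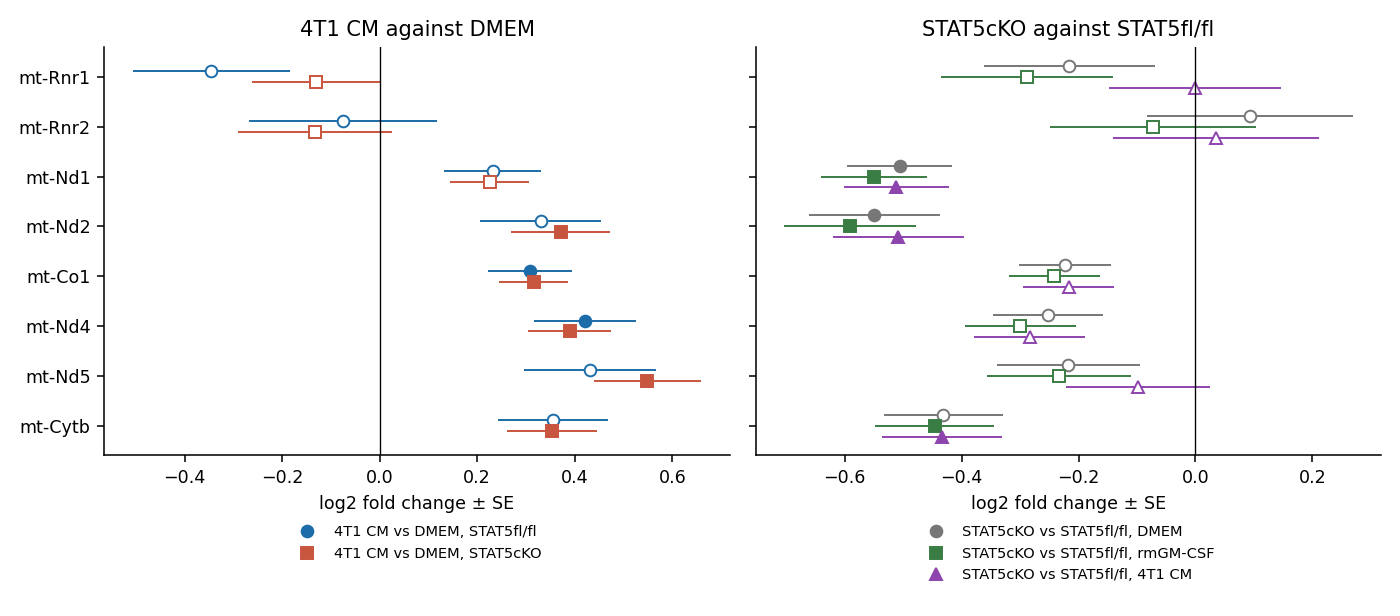
Log2 fold changes with their SE from edgeR for the 2 rRNA genes and 6 abundant protein genes, 4T1 CM against DMEM in each genotype (left) and STAT5cKO against STAT5fl/fl in each treatment (right); filled symbols passed an adjusted p of 0.01. The protein genes lie at 0.23 to 0.55 on the left with both genotypes close together, and mt-Nd1 and mt-Nd2 lie furthest from 0 on the right, at -0.51 to -0.59.

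mt-Nd6, a complex I subunit and the only protein gene read from the other strand, varied more than any abundant gene. It had 230 and 184 counts in STAT5fl/fl libraries with DMEM, 354 and 428 in rmGM-CSF, and 228 and 414 in 4T1 CM. In STAT5cKO libraries it had 411, 140 and 227 counts with DMEM, 333, 155 and 183 in rmGM-CSF, and 117, 121 and 219 in 4T1 CM. Mouse 114 was high in DMEM and rmGM-CSF and lowest of all 15 libraries with 4T1 CM. Both STAT5fl/fl libraries with rmGM-CSF lay above both with DMEM (log2 fold change 1.31, SE 0.42, adjusted p = 0.0202), and without overlap the STAT5cKO libraries with 4T1 CM lay below those of STAT5fl/fl BMDMs (-1.19, SE 0.41, adjusted p = 0.0592). The first passed with the mouse as a block, and also with no filter on low counts, with only the libraries compared and without mouse 114 or 115 (adjusted p = 0.00173, 5.13e-06, 0.00298 and 0.00555). Besides the main model, it did not pass with TMM scaling, the filterByExpr filter, DESeq2, totals without MT rows or without mouse 116. The second, for which no block could be fitted, passed only with no filter on low counts (adjusted p = 0.00906).

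The tRNA genes on that strand had few counts, 0 to 19 per library in sum. They had 3 and 3 counts in STAT5fl/fl libraries with DMEM, 19 and 6 in rmGM-CSF, and 6 and 12 in 4T1 CM. In STAT5cKO libraries they had 14, 2 and 14 with DMEM, 17, 0 and 9 in rmGM-CSF, and 1, 3 and 4 in 4T1 CM. The 2 measures did not go together in every library: STAT5fl/fl mouse 113 with rmGM-CSF had the highest mt-Nd6 count, 428, with 6 of these tRNA counts. Of the tRNA genes on the strand of mt-Co1, mt-Tw had 7 to 39 counts per library and log2 fold changes of 1.24 (adjusted p = 0.0441) in STAT5fl/fl and 0.68 (adjusted p = 0.231) in STAT5cKO BMDMs from DMEM to 4T1 CM. Its gene (MT:4950-5016, plus strand) is shown as the tRNA with enough counts to be tested, and its first 2 bases are the last 2 of mt-Nd2.
mt-Tw: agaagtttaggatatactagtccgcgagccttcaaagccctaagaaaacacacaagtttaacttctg

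**Figure D5:**
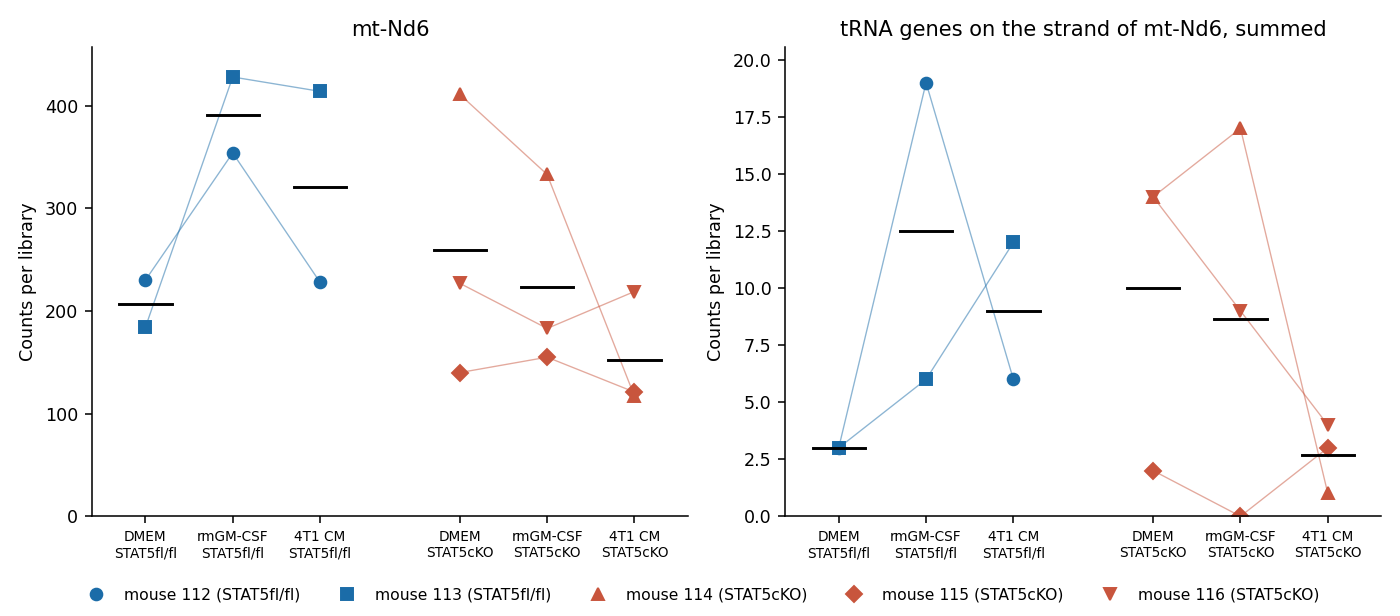
Counts per library of mt-Nd6 (left) and summed counts of the tRNA genes on the same strand (right), by genotype and treatment, on axes from 0; symbols are mice, thin lines join the libraries of a mouse, and black bars are group means. Mice of a group lie far apart, as with mt-Nd6 at 411, 140 and 227 counts in STAT5cKO libraries with DMEM.

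mt-Atp8, the small subunit of complex V shown above, had 2600 counts in the DMEM library of STAT5fl/fl mouse 112 and 11 to 38 in the other 14 libraries. The other STAT5fl/fl DMEM library had 28. Of 14532 genes with at least 10 counts in their second-highest library, mt-Atp8 was the only one with a library 50 times above it. Its neighbour mt-Atp6, which shares the 43 bases in capitals, had 88 counts in that library and 53 to 92 over all libraries. The calls of mt-Atp8 rest on this library: -5.22 for rmGM-CSF against DMEM (adjusted p = 0.00251) and -5.04 for 4T1 CM against DMEM (adjusted p = 0.00168) in STAT5fl/fl BMDMs, and -5.92 for STAT5cKO against STAT5fl/fl BMDMs in DMEM (adjusted p = 0.0029). Without that library they were 0.42 (adjusted p = 0.581), 0.61 (adjusted p = 0.344) and -0.28 (adjusted p = 0.843).

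The other low genes, mt-Co2, mt-Co3 and mt-Atp6, were not called in any comparison with all libraries in 1 model. mt-Co2 had 59 to 104 counts per library, mt-Co3 67 to 122 and mt-Atp6 53 to 92. From DMEM to 4T1 CM their log2 fold changes were 0.21, 0.42 and 0.26 in STAT5fl/fl BMDMs (adjusted p = 0.449, 0.128 and 0.41) and 0.25, 0.34 and 0.04 in STAT5cKO BMDMs (adjusted p = 0.26, 0.144 and 0.905). Without mouse 116 mt-Co3 was called there (0.68, adjusted p = 0.00792). These SEs of 0.18 to 0.25 are wider than those of the abundant genes, and differences of the size seen for mt-Co1 were not detectable at this depth. Of the 6 pseudogenes that were tested, 0 were called by edgeR in the 9 comparisons of 2 groups (4 of 54 tests at an unadjusted p under 0.05, smallest adjusted p = 0.057). Gm28437 had 246 counts in the DMEM library of STAT5fl/fl mouse 113 and 75 to 133 in the others.

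Nuclear genes of the same complexes were set beside them. From DMEM to 4T1 CM, 6 of 10 nuclear complex IV genes rose in STAT5fl/fl and 4 of 10 in STAT5cKO BMDMs, with median log2 fold changes of 0.40 and 0.23, beside 19.2% and 19.3% of all tested genes called higher. Of 15 complex V genes, 7 and 2 rose (medians 0.29 and 0.14), of 9 complex III genes 2 and 1 (medians 0.24 and 0.18), and of 7 complex I core genes 0 and 0 (medians -0.03 and 0.01), and no gene of these lists fell. In STAT5cKO BMDMs the shares of complex V, complex III and complex I core genes were thus below that over all genes. With rmGM-CSF against DMEM, 1 complex III gene was called higher in STAT5fl/fl BMDMs and no other gene of the 4 lists in either genotype. Between genotypes the lists did not follow mt-Nd1 and mt-Nd2. The medians of the 7 complex I core genes were 0.14, 0.09 and 0.13 in DMEM, rmGM-CSF and 4T1 CM. Lower in STAT5cKO BMDMs were 1 of 10 complex IV genes with rmGM-CSF, beside 6.24% of all tested genes, and 1 of 15 complex V genes with 4T1 CM, beside 3.57%.

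The nuclear machinery of mtDNA expression had calls in both directions. Of 34 genes in this list 33 were tested. With 4T1 CM against DMEM, 2 were higher and 6 lower in STAT5fl/fl BMDMs, beside 19.2% and 18.2% of all tested genes. In STAT5cKO BMDMs 5 were higher and 8 lower, beside 19.3% and 18.4%. In STAT5fl/fl BMDMs the list was thus not called lower more often than all genes. Only some members are named below, and Tefm, Twnk and Ssbp1 were also called in both genotypes. Polrmt, the RNA polymerase of mitochondria, had 29.99 ± 2.99 CPM with DMEM and 17.4 ± 2.04 with 4T1 CM in STAT5fl/fl BMDMs (SD, n = 2), and 34.5 ± 3.19 and 17.1 ± 0.841 in STAT5cKO BMDMs (SD, n = 3). It fell with log2 fold changes of -0.78 (adjusted p = 4.88e-05) and -1.01 (adjusted p = 1.74e-07), and a link to the higher mRNAs of mt-Co1 and mt-Nd4 was not tested. Grsf1, which binds RNA in mitochondria, fell by 0.71 and 0.67 on the log2 scale (adjusted p = 1.05e-05 and 1.81e-06), and Fastkd3, of a family that acts on mitochondrial RNA, by 0.88 and 0.67 (adjusted p = 2.1e-06 and 2.44e-06). Lrpprc, which stabilises mitochondrial mRNAs, fell by 0.31 and 0.24 (adjusted p = 0.00662 and 0.00783). Its partner Slirp had log2 fold changes of 0.32 and 0.22 (adjusted p = 0.0392 and 0.082), and Tfam, which packages mtDNA, -0.02 and -0.08 (adjusted p = 0.885 and 0.456).

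Genes of mtDNA copying also differed. Polg, the catalytic subunit of the mtDNA polymerase, rose with 4T1 CM by 0.55 and 0.37 (adjusted p = 6.77e-06 and 4.26e-05). Its accessory subunit Polg2 fell with rmGM-CSF by 1.51 and 1.33 (adjusted p = 3.88e-05 and 6.31e-06), from 4.70 ± 0.149 to 1.68 ± 0.625 CPM in STAT5fl/fl BMDMs. Between genotypes, 0 of the 33 tested genes of the list were called in DMEM. With each stimulus 1 gene was lower in STAT5cKO BMDMs, beside 6.24% of all tested genes called lower with rmGM-CSF and 3.57% with 4T1 CM. It was Mgme1, a nuclease of mtDNA maintenance, with log2 fold changes of -0.41 in rmGM-CSF (adjusted p = 0.0024) and -0.47 in 4T1 CM (adjusted p = 0.00135). Of the 6 tested regulators of nuclear mitochondrial genes, 4 were called higher with rmGM-CSF than with DMEM in each genotype, beside 15.9% of all genes in STAT5fl/fl and 13.3% in STAT5cKO BMDMs, and 2 with 4T1 CM. Apart from these, 1 regulator was lower with rmGM-CSF in STAT5cKO BMDMs, beside 10.2% of all genes, and 1 with 4T1 CM in each genotype. Between genotypes, 0 regulators were called in DMEM and 1 was lower in STAT5cKO BMDMs with each stimulus, beside the same 6.24% and 3.57%.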

How the data were processed

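Bulk RNA-seq of 15 BMDM libraries was used. Per the methods and submitters' notes, the authors trimmed reads with Trimmomatic 0.33, aligned them with HISAT2 2.1.0 to GRCm38, and counted fragments per gene (Ensembl release 99) with featureCounts 1.6.2, strand-specifically, for properly paired fragments with a mapping quality of at least 10 and without multi-mapping or multi-overlapping fragments. The deposited values are raw counts per gene. Fragments matching both mtDNA and its nuclear copies, or overlapping genes of one strand, could be lost or misassigned by these settings. A TruSeq stranded kit was used.

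Counts were tested in R 4.3.3 with edgeR 4.0.16 (quasi-likelihood F test, relative log expression scaling, genes over 1 CPM in at least 2 libraries, 13005 genes), in a model of 6 groups, with Benjamini-Hochberg adjustment over all tested genes and a threshold of 0.01. The share of counts on MT rows was compared by exact permutation tests in SciPy. The script was tested on simulated data. Libraries with the same number were taken as 1 mouse. Their deviations from group means correlated in all 15 pairs (r 0.0548 to 0.214). These pairs are not independent, as 2 STAT5fl/fl mice give the same r by construction. The mouse as a block was used as an alternative. Others were TMM, no filter, filterByExpr, DESeq2 1.42.0, totals without MT rows, a threshold of 0.05, only the libraries compared, and leaving out each mouse; leaving out a single DMEM library was added after seeing the data. All MT rows were named by rule, tRNA genes mostly by range; pseudogenes were all rows of chromosome 1 from 24600000 to 24630000. Counts of 3 or fewer were taken as the floor, and floors cover counting error only. Members and gene lists (mtDNA machinery, regulators, nuclear partners, markers) were chosen with earlier results of these data known. Sequences came from GENCODE M21. Libraries named in the header without counts were not analysed here.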

Additional observations from a re-analysis of the deposited data

How the results depend on the processing

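The differences in the mitochondrial share of counts kept their direction without each mouse: 0.218 to 0.248 percentage points for 4T1 CM against DMEM, 0.289 to 0.376 against rmGM-CSF, -0.128 to -0.0573 for rmGM-CSF against DMEM, and -0.433 to -0.309, -0.415 to -0.251 and -0.498 to -0.324 for STAT5cKO against STAT5fl/fl BMDMs in DMEM, rmGM-CSF and 4T1 CM. Counts of called mitochondrial genes were less stable, and where they moved the cause was not tested unless fewer samples or another threshold explains it. TMM, filterByExpr and totals without MT rows gave the counts of the report.

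For 4T1 CM against DMEM in STAT5fl/fl BMDMs, 3 genes became 5 with DESeq2, no filter or only the libraries compared (the last with mt-Rnr1 as lower), and 7 with the mouse as a block or a threshold of 0.05; in STAT5cKO BMDMs 5 became 1 with only the libraries compared. Against rmGM-CSF, 0 became 2 in STAT5fl/fl BMDMs with DESeq2, no filter, the mouse block or only the libraries compared (mt-Nd4 higher and mt-Rnr1 lower in the last), and 3 at a threshold of 0.05, and 3 became 5 in STAT5cKO BMDMs with DESeq2, no filter, the block or that threshold. For rmGM-CSF against DMEM in STAT5fl/fl BMDMs, 1 became 2 with no filter, the block, the threshold of 0.05 or only the libraries compared. For genotype, 3 became 5 in DMEM with DESeq2, 5 with 4T1 CM without a filter, 5 with rmGM-CSF at the threshold of 0.05, and with only the libraries compared 6 with rmGM-CSF and 0 with 4T1 CM (edgeR, mt-Nd1 at an adjusted p of 0.0156).

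With 1 mouse or the DMEM library of mouse 112 left out, the counts ran from 0 to 6 and 1 to 5 for 4T1 CM against DMEM in STAT5fl/fl and STAT5cKO BMDMs, from 0 to 2 and 0 to 4 against rmGM-CSF, from 0 to 2 for rmGM-CSF against DMEM in STAT5fl/fl BMDMs, from 0 to 2, 0 to 3 and 0 to 3 for genotype in DMEM, rmGM-CSF and 4T1 CM, and from 0 to 1 (mt-Atp8) for both interactions. In every comparison the calls over all tested genes fell as well when a mouse or that library was left out. Where a genotype keeps 1 mouse, it is assumed to vary like the other groups. Directions of called genes were kept under all these alternatives but for mt-Atp8, which reversed to 0.45 and 0.42 for rmGM-CSF and to 0.73 and 0.61 for 4T1 CM against DMEM without mouse 112 or its DMEM library, and was -6.24 and -6.16 without mouse 113. The mouse as a block ended no call. No paired analysis was possible for the genotype because its groups share no mouse. Depth limits the genes with under about 100 counts.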
